A study of Mus musculus with 16 samples.

Results

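The genes described here are 7 matrix metalloproteinases (MMPs) and 3 tissue inhibitors of metalloproteinases (TIMPs), namely Mmp2, Mmp8, Mmp9, Mmp12, Mmp13, Mmp14, Mmp19, Timp1, Timp2 and Timp3. They were chosen by name and are 10 of the 55604 genes listed in the count tables. Their transcripts were compared between Tim-4+ and Tim-4- tumor-associated macrophages (TAMs) from the peritoneal cavity of C57BL/6 mice carrying ID8 tumors. ID8 cells are a transplantable line of murine ovarian surface epithelium that forms peritoneal tumors. The study's methods give female mice aged 6 to 8 weeks when used, and a figure legend gives cell isolation at 6 to 7 weeks in tumor-bearing mice. Both subsets were prepared from peritoneal washes by magnetic selection after a Ficoll step against tumor cells, with Tim-4 as the selecting antigen for the first subset and F4/80, on the remaining cells, for the second. All groups thus came from tumor-bearing mice, and no tumor-free macrophages were part of the comparison. The comparison asks how the subset with Tim-4, a phosphatidylserine receptor of resident macrophages, differs from the subset without it. There were 4 libraries per subset, joined into pairs numbered 793, 784, 783 and 779, and whether a pair was 1 mouse or a pool was not given in the sources used here. The numbers are those of the labels. Another table of the study seems to carry them in the reverse order, which leaves the pairing itself unchanged but not which pair a number names. Values below are listed in the order given here, and gene coordinates are those of GRCm38.

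MMPs are zinc-dependent endopeptidases that cleave collagens, gelatin, elastin, proteoglycans and many cell surface and secreted proteins. Most are secreted as inactive proenzymes, and a subgroup is anchored in the plasma membrane. TIMPs bind the active site of MMPs and block them, and Timp2 also takes part in the activation of pro-Mmp2 by Mmp14 at the cell surface. Macrophages are a known source of several MMPs and of TIMPs in inflamed and tumor-bearing tissue.

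Promoters of members are shown first. They are those of the 2 members that fell by at least 2-fold and of Timp3, whose log2 fold change was of like size but not called. Those of the neighboring genes Mmp13 and Mmp12, neither of them called, follow. These promoters differ in the short motifs next to their start sites. Each line gives the 250 bases before the RefSeq start on GRCm38.p6, read 5′ to 3′ in the direction of the gene. Capitals mark the letters TGANTCA (the AP-1 element), TATAAA (the TATA box), GGGCGG (the GC box) and AGGAAG (a core bound by ETS factors), each searched on both strands.
Mmp14, chr14:54431348-54431597, plus strand: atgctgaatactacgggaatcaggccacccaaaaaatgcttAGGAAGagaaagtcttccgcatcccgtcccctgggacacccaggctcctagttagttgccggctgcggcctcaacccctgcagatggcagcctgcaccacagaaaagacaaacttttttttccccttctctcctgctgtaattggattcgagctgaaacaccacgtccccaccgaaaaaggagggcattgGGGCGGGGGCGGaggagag
Timp1, chrX:20869916-20870165, plus strand: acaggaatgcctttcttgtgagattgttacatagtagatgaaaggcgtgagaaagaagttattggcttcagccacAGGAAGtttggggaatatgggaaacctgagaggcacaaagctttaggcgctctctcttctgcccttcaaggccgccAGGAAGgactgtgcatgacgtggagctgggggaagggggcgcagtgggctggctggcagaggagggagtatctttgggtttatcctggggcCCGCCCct
Timp3, chr10:86300162-86300411, plus strand: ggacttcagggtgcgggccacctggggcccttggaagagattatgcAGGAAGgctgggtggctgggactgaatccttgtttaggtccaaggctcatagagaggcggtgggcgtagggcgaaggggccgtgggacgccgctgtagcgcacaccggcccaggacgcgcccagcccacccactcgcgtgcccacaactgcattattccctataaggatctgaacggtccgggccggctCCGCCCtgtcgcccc
Mmp13, chr9:7272264-7272513, plus strand: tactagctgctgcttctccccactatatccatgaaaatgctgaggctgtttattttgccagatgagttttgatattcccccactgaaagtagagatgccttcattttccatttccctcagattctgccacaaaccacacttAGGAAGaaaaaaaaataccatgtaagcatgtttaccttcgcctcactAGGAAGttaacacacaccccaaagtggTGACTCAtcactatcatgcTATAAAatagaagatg
Mmp12, chr9:7344147-7344396, plus strand: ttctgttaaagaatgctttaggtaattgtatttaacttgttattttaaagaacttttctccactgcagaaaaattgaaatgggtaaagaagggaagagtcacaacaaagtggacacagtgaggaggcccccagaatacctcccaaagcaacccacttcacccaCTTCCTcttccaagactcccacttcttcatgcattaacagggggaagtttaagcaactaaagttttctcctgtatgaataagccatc
Of the 10 members, 7 had an entry in the promoter table, and Mmp2, Mmp9 and Mmp19 did not. Mmp13 held TGANTCA at 35 bases and TATAAA at 16 bases before its start and was the sole member among these 7 with either. GGGCGG was found in 4 of the 7, which were Mmp14, Timp1, Timp2 and Timp3. Timp2, not shown, was higher in Tim-4+ TAMs in 4 of 4 pairs but not called. Mmp8, not shown and called higher, held AGGAAG alone. AGGAAG was found in 6 of the 7. Among 32851 starts in the table, 6.75% held TGANTCA, 12.4% held TATAAA, 32.7% held GGGCGG and 29.5% held AGGAAG in windows of the same length. Over the whole family, 10 promoters lay in the MMP cluster of chromosome 9. Of these, 7 held both TGANTCA and TATAAA and 0 held GGGCGG, whereas GGGCGG was found in 9 of the 12 family promoters elsewhere. No matches of different motifs overlapped each other in the family. Mmp28, which rose in Tim-4+ TAMs, was among those with GGGCGG. A match of letters is a description and was not tested for binding or for a link with the direction of change.

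The libraries held 53527928 to 69594245 counts on genes, and a count of 3, taken as the floor of detection, stood for 0.0431 to 0.0560 CPM (counts scaled to library size). This floor covers counting error only. Timd4, which encodes Tim-4, was at 1160, 1743, 524 and 1166 CPM, here and below scaled by TMM factors, in Tim-4+ TAMs. It was at 84.9, 11.1, 22.25 and 1.96 CPM in Tim-4- TAMs, so each library went with its label. The Tim-4- libraries of pairs 793 and 783 held the most Timd4. Macrophage genes were abundant in both subsets. Csf1r, the receptor for the macrophage growth factor CSF1, was at 2774 CPM in Tim-4+ and 2357 CPM in Tim-4- TAMs on average. Markers of other cells were present too. The summed level of 12 mesothelial genes ranged from 157 to 631 CPM in Tim-4+ TAMs and from 616 to 2490 CPM in Tim-4- TAMs, and all 12 fell in Tim-4+ TAMs. The sum was higher in the Tim-4- library by 3.92-fold, 6.02-fold, 2.0-fold and 8.45-fold in the 4 pairs. Krt7, Krt8, Krt18 and Wt1 of this list also stand in a list of epithelial or tumor markers. In that list 5 of 7 tested genes fell, namely these and Epcam, against 8.43% of all genes. Whether the transcripts called mesothelial here and below came from mesothelial cells or from ID8 tumor cells was not tested.

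All 10 members passed the filter of 10 counts in 4 libraries. Mmp19 and Mmp8 rose in Tim-4+ TAMs, Mmp14 and Timp1 fell, and Mmp2, Mmp9, Mmp12, Mmp13, Timp2 and Timp3, the other 6, were not called at an adjusted p under 0.05 in edgeR's quasi-likelihood test with the pair as a block. Over the 16861 genes tested, 8.97% were called higher and 8.43% lower in Tim-4+ TAMs, or 17.4% in either direction. A change of at least 2-fold was called for 1 member that was higher and 2 that were lower, against 3.8% and 5.79% of all genes. The median log2 fold change was 0.26 over the members and -0.0012 over all genes. When libraries were scaled by total counts the median of all genes was -0.36, and the numbers of genes called higher and lower, 1512 and 1421 with TMM, became 789 and 4903. Between pairs, 6 members kept 1 direction in 4 of 4, as did 42.6% of all genes. In the sorted bulk samples, fewer cells of a type and less RNA per cell cannot be told apart.

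**Figure D1:**
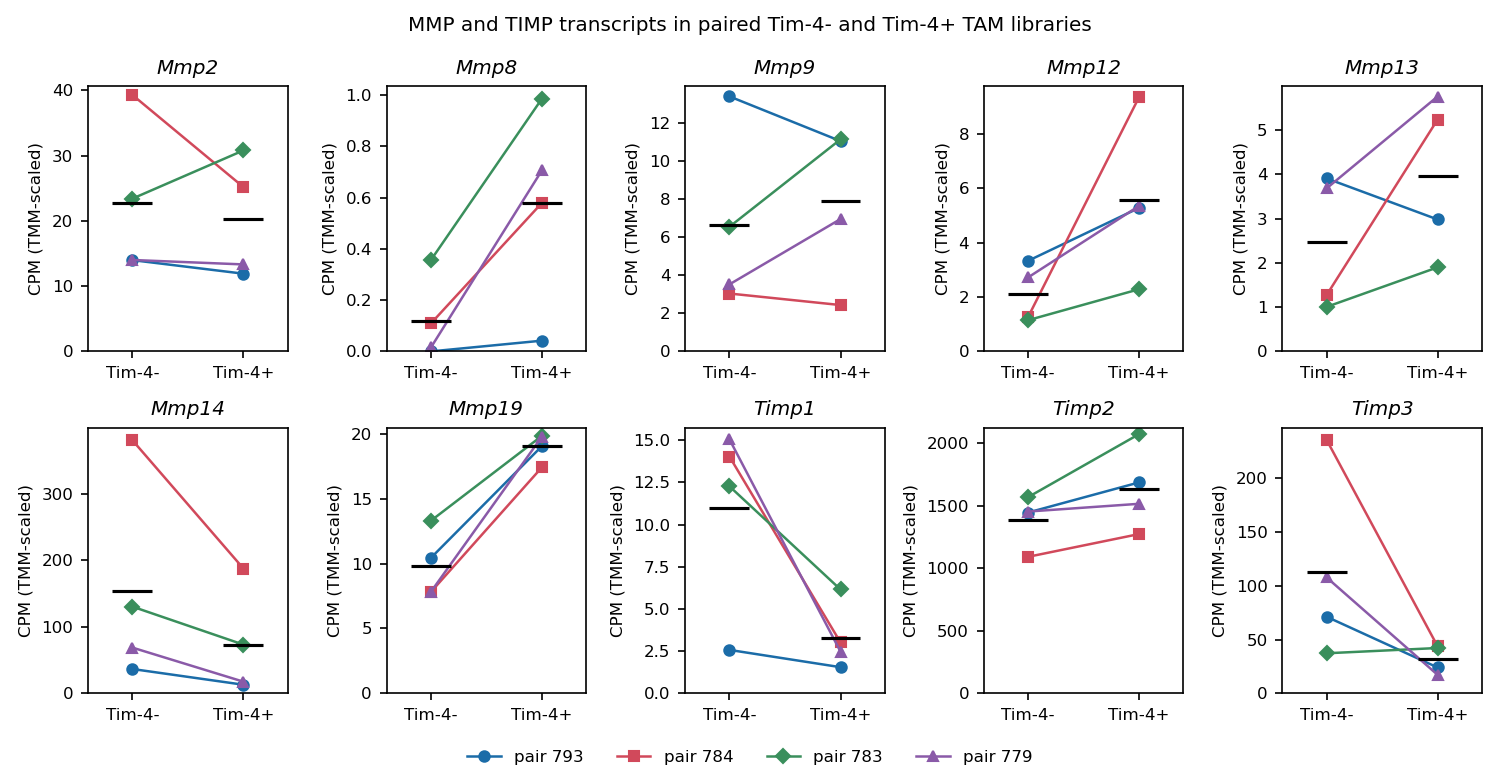
TMM-scaled CPM of the 10 members in each library, with Tim-4- TAMs on the left and Tim-4+ TAMs on the right of every panel. Each line joins the libraries of 1 pair, black bars mark the means of 4 libraries, and each vertical axis has its own scale from 0. Mmp14 and Timp1 decline and Mmp19 climbs in every pair, and pair 784 stands highest for Mmp14 in both subsets.

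Mmp14 (ENSMUSG00000000957, chr14:54431612-54445364, plus strand), a membrane-anchored collagenase and activator of pro-Mmp2, fell in Tim-4+ TAMs. Its levels were 13.04, 188, 73.3 and 17.6 CPM in Tim-4+ TAMs. In Tim-4- TAMs they were 36.7, 380.4, 130.4 and 68.8 CPM. Pair 784 was the highest and pair 793 the lowest in both subsets, and the ranges of the subsets overlapped. The highest library exceeded the lowest by 14.4-fold within Tim-4+ TAMs and by 10.4-fold within Tim-4- TAMs, whereas the gap between subsets within a pair was 1.78-fold to 3.90-fold. It was lower in Tim-4+ TAMs in 4 of 4 pairs, and the log2 fold change came to -1.32 (SE 0.19, adjusted p = 0.00875 in edgeR's quasi-likelihood test). A fit without the pair as a block gave -1.08 and an adjusted p of 0.566. With pair 784 left out, the adjusted p was 0.0574.

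The mesothelial sum was, like Mmp14, lower in the Tim-4+ library of each pair, and the part of these markers in the result was not tested. In the pairs 793 and 783, in which the mesothelial sums differed least, Mmp14 differed by -1.15 on the log2 scale (adjusted p = 0.0523). This fit on fewer libraries was chosen after the values were seen. It called no member in either direction, so its adjusted p cannot show the part of the markers. The log2 ratios of Mmp14 in the single pairs were -1.49, -1.02, -0.83 and -1.96, and those of the mesothelial sum were -1.97, -2.59, -1.0 and -3.08. Pair 779 had the widest gap and pair 783 the narrowest for both.

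Mmp2 and Mmp9 are the gelatinases, which cleave denatured collagen and basement membrane collagen. Mmp2 (ENSMUSG00000031740, chr8:92827291-92853420, plus strand) stood at 11.9, 25.2, 30.8 and 13.3 CPM in Tim-4+ TAMs and at 14.0, 39.3, 23.4 and 14.0 CPM in Tim-4- TAMs. The ranges overlapped almost wholly, pairs 784 and 783 were high in both subsets, and 3 of 4 pairs were lower in Tim-4+ TAMs. The fitted log2 fold change was -0.14 (SE 0.17, adjusted p = 0.623, edgeR). It was 0.03 with pair 784 left out.

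Mmp9 (ENSMUSG00000017737, chr2:164940780-164955850, plus strand) was found at 11.1, 2.44, 11.2 and 6.97 CPM in Tim-4+ TAMs and at 13.4, 3.05, 6.56 and 3.53 CPM in Tim-4- TAMs. Pair 784 had the lowest level in both subsets, the reverse of its place for Mmp14. The direction was split, with 2 pairs higher and 2 pairs lower in Tim-4+ TAMs. The fitted log2 fold change was 0.29 (SE 0.27, adjusted p = 0.495, edgeR), and it was -0.07 with total-count scaling. Neither gelatinase was thus called, and the direction of each depended on a library or on the scaling.

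Mmp8 and Mmp13 are collagenases that cut fibrillar collagen, and Mmp8 is best known from neutrophil granules. Mmp8 (ENSMUSG00000005800, chr9:7558456-7568485, plus strand) was a low-count gene, with 2, 29, 54 and 34 counts in Tim-4+ TAMs and 0, 8, 28 and 1 counts in Tim-4- TAMs. In CPM these were 0.042, 0.580, 0.987 and 0.707 against 0.0, 0.109, 0.357 and 0.0153. It was higher in Tim-4+ TAMs in 4 of 4 pairs, but the ranges overlapped, and in pair 793 neither library had more than 3 counts. Across pairs it rose by 2.73 on the log2 scale (SE 0.77, adjusted p = 0.0477, edgeR). The call was lost without the pair block (adjusted p = 0.309), with lane 2 alone (0.0694), and when pair 793 (0.0950), 784 (0.158) or 779 (0.142) was left out. With pair 783 left out Mmp8 did not pass the count filter, so it was called in no fit that left out a pair.

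Neutrophil markers were mixed in level beside Mmp8, and their part in its difference was not tested. Of 12 such genes, 3 passed the count filter and 1 of these rose, against 8.97% of all genes. It was Csf3r, the receptor for granulocyte colony-stimulating factor, which macrophages also express. The sum of the 12 was 252 to 370 CPM across Tim-4+ libraries against 87.2 to 191 CPM across Tim-4- libraries, nearly all of it Csf3r. S100a8, a subunit of calprotectin, was at 1.53 to 2.89 CPM in the first and 1.39 to 1.90 CPM in the second, higher in 4 of 4 pairs but not called (log2 fold change 0.36, adjusted p = 0.374). Elane, neutrophil elastase, was not called either (-0.26, adjusted p = 0.767). Of the 9 that did not pass the filter, 3 had the higher mean in Tim-4+ TAMs, namely Camp (0.153 against 0.0783 CPM), Ltf (0.163 against 0.0970 CPM) and Ly6g (0.0302 against 0.0130 CPM), and 6 the higher mean in Tim-4- TAMs, among them S100a9 (0.0183 against 0.323 CPM) and Mpo (0.186 against 0.629 CPM). Prtn3 and Lcn2, further genes of neutrophil granules that lie in other lists below, rose in Tim-4+ TAMs. Ctsg, another such gene, did not pass the filter and had the higher mean in Tim-4- TAMs (0.0721 against 0.184 CPM).

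Mmp13 (ENSMUSG00000050578, chr9:7272514-7283331, plus strand) stood at 2.98, 5.24, 1.9 and 5.76 CPM in Tim-4+ TAMs and at 3.91, 1.27, 1.01 and 3.68 CPM in Tim-4- TAMs. The ranges overlapped, and pair 793 went against the other 3. Mmp13 was not called, at a log2 fold change of 0.79 (SE 0.39, adjusted p = 0.199, edgeR). Mmp13 is the member with the AP-1 and TATA letters shown above.

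Mmp12 (ENSMUSG00000049723, chr9:7344381-7369499, plus strand), the macrophage metalloelastase, cleaves elastin and is made mainly by macrophages. It was at 5.27, 9.34, 2.28 and 5.34 CPM in Tim-4+ TAMs and at 3.33, 1.26, 1.15 and 2.72 CPM in Tim-4- TAMs. It was the higher in Tim-4+ TAMs in 4 of 4 pairs, by 1.58-fold to 7.43-fold, and pair 784 had the widest gap. The ranges overlapped because the Tim-4+ library of pair 783 lay below 2 of the Tim-4- libraries. The fitted log2 fold change was 1.36 (SE 0.39), and the adjusted p of 0.0528 missed the threshold. Mmp12 was called with DESeq2 (adjusted p = 0.00372), without a count filter (0.0259) and with pair 783 left out (0.0264). It was not called in edgeR with pair 793 (0.0814), 784 (0.121) or 779 (0.128) left out, or with lane 2 only (0.106). Pairs 793 and 783 alone gave 0.82 on the log2 scale (adjusted p = 0.255), in a fit that called no member.

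Mmp19 (ENSMUSG00000025355, chr10:128790910-128800824, plus strand), a secreted MMP that cleaves basement membrane components, rose in Tim-4+ TAMs. It stood at 19.1, 17.4, 19.8 and 19.8 CPM in Tim-4+ TAMs, where the highest library exceeded the lowest by 1.14-fold. In Tim-4- TAMs it was at 10.4, 7.82, 13.3 and 7.83 CPM. Every Tim-4+ library lay above every Tim-4- library, and Mmp19 was the 1 member of 10 without overlap, as were 6.84% of all genes on the side of Tim-4+ TAMs and 5.92% on the other side. The log2 fold change was 0.98 (SE 0.16, adjusted p = 0.0106, edgeR), and the single pairs gave log2 ratios of 0.87, 1.16, 0.58 and 1.34. Fitted without the block, it differed by 0.95 (adjusted p = 0.0535), and with pair 784 left out the adjusted p was 0.0695.

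The summed level of macrophage markers was higher in Tim-4+ TAMs, as was Mmp19. Of 8 such genes, 4 rose and 1 fell in Tim-4+ TAMs, against 8.97% and 8.43% of all genes. The sum ranged from 9139 to 10430 CPM against 4736 to 6794 CPM in Tim-4- TAMs. Their part in the higher Mmp19 was not tested. In pairs 793 and 783 alone, Mmp19 differed by 0.72 on the log2 scale (adjusted p = 0.104), in a fit that called no member. Mmp19 overlaps Tmem198b on the opposite strand, which was at 10.8 and 10.4 CPM in the subsets, with a log2 fold change of 0.03 that was not called.

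Timp1 (ENSMUSG00000001131, chrX:20870166-20874735, plus strand), the inducible inhibitor of secreted MMPs, fell in Tim-4+ TAMs. Its levels were 1.55, 3.02, 6.16 and 2.48 CPM in Tim-4+ TAMs and 2.58, 14.0, 12.3 and 15.1 CPM in Tim-4- TAMs. The Tim-4+ library was lower in 4 of 4 pairs, by 1.66-fold to 6.08-fold. The ranges overlapped through pair 793, whose Tim-4- library was far below the other 3. Timp1 had a log2 fold change of -1.65 (SE 0.35, adjusted p = 0.0221, edgeR). The adjusted p was 0.120 without the block, 0.0718 with pair 779 left out and 0.116 with pair 784 left out.

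Timp3 (ENSMUSG00000020044, chr10:86300372-86349506, plus strand), an inhibitor held in the extracellular matrix that also blocks ADAM proteases, was at 24.1, 43.8, 42.1 and 17.2 CPM in Tim-4+ TAMs. It was at 71.2, 235, 37.3 and 108 CPM in Tim-4- TAMs. In pairs 793, 784 and 779 the Tim-4- library was the higher, and in pair 783 both were nearly level. Its log2 fold change was -1.65 (SE 0.48), as large as that of Timp1, but the adjusted p was 0.0602 in edgeR. It was called with pair 783 left out, at -2.22 with an adjusted p of 5.02e-05, with DESeq2 (adjusted p = 0.0220) and with total-count scaling (0.0323). Timp3 was not called in edgeR with pair 793 (0.170), 784 (0.206) or 779 (0.200) left out, or without a count filter (0.348).

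The mesothelial sum was lower in the Tim-4+ library of each pair, as was Timp1, whereas Timp3 was lower in 3 of 4. The part of these markers in the result was not tested. The log2 ratios in the 4 pairs were -0.73, -2.22, -0.99 and -2.6 for Timp1 and -1.56, -2.43, 0.18 and -2.64 for Timp3. By size of gap, the pairs stood in the order 779, 784, 793 and 783 for Timp3 and for the mesothelial sum alike. For Timp1 the last places were exchanged, which is also the order of Timd4 in the Tim-4- libraries from lowest to highest. The part of the remaining Timd4 in the result was not tested either. Pairs 793 and 783 alone gave -0.87 on the log2 scale for Timp1 (adjusted p = 0.162) and -0.69 for Timp3 (adjusted p = 0.550). Because that fit called no member, these adjusted p-values cannot show the part of the markers. Fibroblast markers also differed in sum, at 19.9 to 91.2 CPM in Tim-4+ TAMs against 50.2 to 173 CPM. Among the 7 of 10 that were tested, 1 fell, against 8.43% of all genes, and 3 had log2 fold changes above 0. The gene that fell was Dcn, which encodes decorin, while Lum and Dpt had at most 10 and 7 counts in any library.

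**Figure D2:**
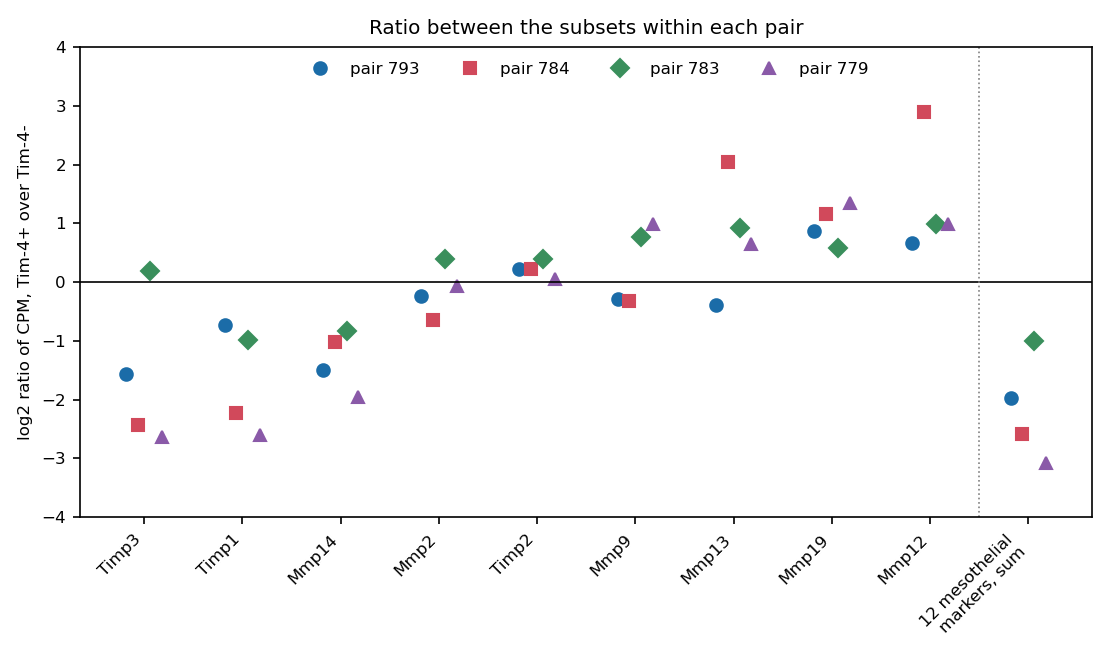
Log2 ratio of CPM between the Tim-4+ and the Tim-4- library of each pair, for 9 members and for the sum of 12 mesothelial markers at the right. Mmp8 is left out because 1 library had 0 counts. Mmp14 and Timp1 lie below 0 in all 4 pairs, Mmp12, Mmp19 and Timp2 above it, and pair 783 is the pair nearest to 0 or above it for Timp3 and for the mesothelial sum.

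Timp2 (ENSMUSG00000017466, chr11:118301069-118355740, minus strand), the inhibitor with a role in pro-Mmp2 activation, was the most abundant member by far. It stood at 1687, 1274, 2073 and 1516 CPM in Tim-4+ TAMs and at 1446, 1092, 1569 and 1454 CPM in Tim-4- TAMs. The ranges overlapped, with pair 784 lowest and pair 783 highest in both subsets. It was the higher in Tim-4+ TAMs in 4 of 4 pairs, but by no more than 1.32-fold. Its log2 fold change was 0.23 (SE 0.14, adjusted p = 0.316, edgeR), and it was -0.13 with total-count scaling. The scaling thus set the direction for Timp2.

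Levels per length put the members on 1 scale. In CPM per kb of exon, the mean in Tim-4+ TAMs was 420.2 for Timp2 (SD 86.3, n = 4), followed by 12.2 for Mmp14, 6.02 for Mmp2, 5.38 for Mmp19, 3.91 for Timp3, 3.72 for Timp1, 2.23 for Mmp9, 1.49 for Mmp13, 0.768 for Mmp12 and 0.239 for Mmp8. Timp2 did not overlap with any other member, and all other neighbors in that order overlapped in range. In Tim-4- TAMs the order was Timp2 at 357, Mmp14 at 25.9, Timp3 at 13.9, Timp1 at 12.4, Mmp2 at 6.73, Mmp19 at 2.79, Mmp9 at 1.88, Mmp13 at 0.923, Mmp12 at 0.292 and Mmp8 at 0.0496 CPM per kb. Neighbors without overlap there were Timp2 and Mmp14, Mmp2 and Mmp19, and Mmp12 and Mmp8. Timp1 and Timp3 thus stood above Mmp2 and Mmp19 in Tim-4- TAMs and below them in Tim-4+ TAMs by their means.

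**Figure D3:**
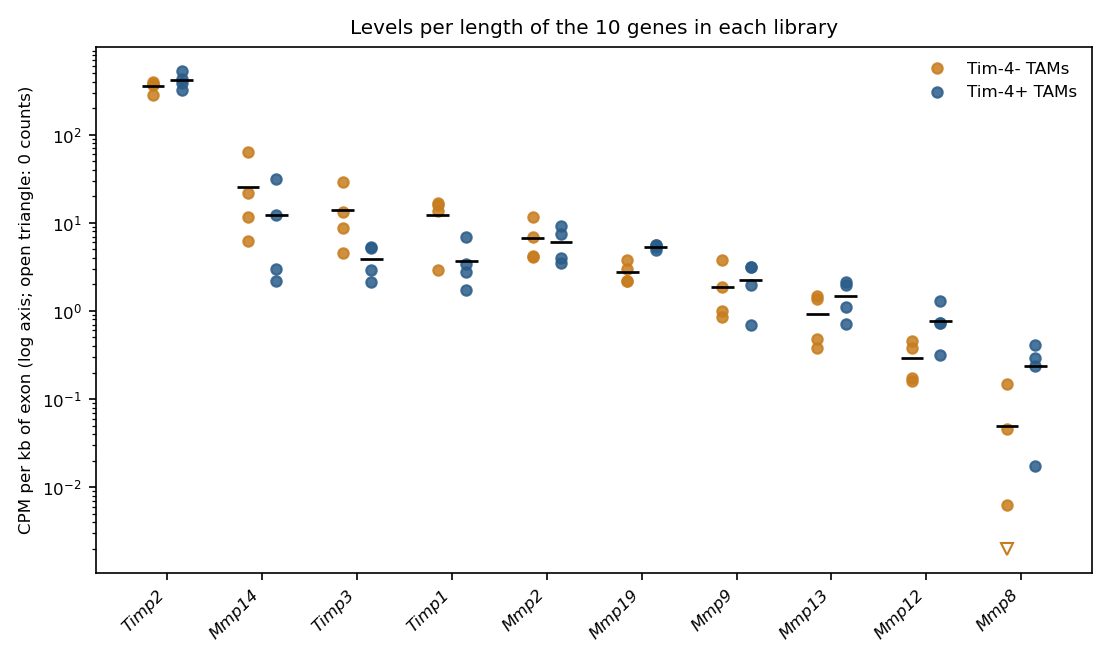
CPM per kb of exon of the 10 members on a log axis, 1 point per library, with Tim-4- TAMs in orange, Tim-4+ TAMs in blue and black bars at the means of 4 libraries. The open triangle is the 1 library with 0 counts for Mmp8. Timp2 lies above every other member in each library.

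The counts of the 7 MMPs were also set against those of the 3 TIMPs in each library, as a description without a test. The ratio was 0.037, 0.188, 0.0661 and 0.0453 in Tim-4+ TAMs, or 0.0840 ± 0.0702 (SD, n = 4). In Tim-4- TAMs it was 0.0538, 0.323, 0.109 and 0.0638, or 0.137 ± 0.126 (SD, n = 4). It was higher in the Tim-4- library of each pair, and the ranges overlapped. Leaving out pair 784 lowered the means to 0.0495 and 0.0755. Timp2 took 81.4% to 98.7% of the TIMP counts in each library. The share of Mmp14 among the MMP counts was 44.9% to 87.8% across Tim-4- libraries. It was 20.6% to 75.7% across Tim-4+ libraries, where Mmp19 had more counts than Mmp14 in pairs 793 and 779. Without Mmp14 and Timp2 the direction turned, and the ratio was 1.96, 1.29, 1.39 and 2.63 in Tim-4+ TAMs against 0.611, 0.212, 0.925 and 0.259 in Tim-4- TAMs.

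**Figure D4:**
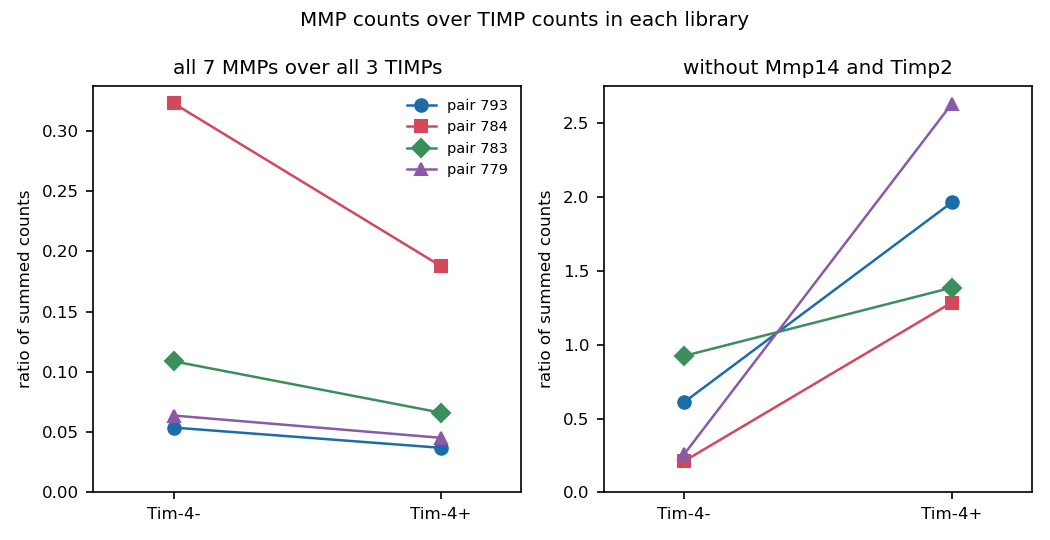
Summed MMP counts over summed TIMP counts in each library, with lines joining the libraries of a pair and both axes starting at 0. With all 10 members (left) the ratio is lower in Tim-4+ TAMs in each pair, and without Mmp14 and Timp2 (right) it is higher in each pair.

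Mmp13, Mmp12 and Mmp8 belong to the MMP cluster of chromosome 9, where Mmp27, a less studied secreted member, lies next to Mmp8. From 7272514 to 7699585 on GRCm38 the cluster holds, in this order, Mmp13, Mmp12, Mmp1b, Mmp3, Mmp1a, Mmp10, Mmp8, Mmp27, Mmp20 and Mmp7. Mmp27 rose in Tim-4+ TAMs, with 2.27, 3.90, 7.44 and 4.49 CPM against 0.524, 0.232, 2.70 and 0.368 CPM in Tim-4- TAMs. It was higher in 4 of 4 pairs, although the Tim-4- library of pair 783 exceeded the Tim-4+ library of pair 793. Mmp27 had a log2 fold change of 2.74 (SE 0.48, adjusted p = 0.0135, edgeR). The 4 cluster genes with counts enough to be tested had log2 fold changes above 0, of which Mmp8 and Mmp27 were called. Of all 16861 genes tested, 8417 were above 0 and 8.97% were called higher. Mmp13 was lower in pair 793, and the call of Mmp8 was lost in the fits described above. The other 6, among them the stromelysins Mmp3 and Mmp10, had at most 8 counts in any library, and Mmp1a and Mmp20 had 0 in all 8. The promoters of these 6 all held TGANTCA and TATAAA, as did that of Mmp13, while those of Mmp12, Mmp8 and Mmp27 held neither. In Mmp20 the match was TGAATCA, which is neither form of the AP-1 element given above.

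Beyond the 10 members, 17 further MMP and TIMP genes were looked up, and 9 of them passed the count filter. Mmp27 and Mmp28 rose, and Mmp15, Mmp17 and Mmp24 fell in Tim-4+ TAMs, while Mmp11, Mmp23, Mmp25 and Timp4 were not called. Over all genes tested, 8.97% rose and 8.43% fell. The median log2 fold change of the 9 was -1.49. Mmp28, known as epilysin, was at 5.27 ± 1.94 CPM in Tim-4+ TAMs against 2.01 ± 1.14 CPM (SD, n = 4), with a log2 fold change of 1.48 (SE 0.31, adjusted p = 0.0190). Mmp15, a membrane-type MMP, ranged from 0.546 to 2.02 CPM in Tim-4+ TAMs against 1.84 to 19.5 CPM, with a log2 fold change of -2.16 (SE 0.32, adjusted p = 0.00875). For Mmp17 and Mmp24, which are also anchored in the membrane, the libraries of the subsets did not overlap. The same held for Timp4 and for 5.92% of all genes on the side lower in Tim-4+ TAMs. Mmp17 had a log2 fold change of -1.49 (adjusted p = 0.0434). Mmp24 had one of -3.35 (adjusted p = 0.0233), with 3 to 11 counts in each Tim-4+ library and 35 to 224 counts in each Tim-4- library. Mmp14, Mmp15, Mmp17 and Mmp24 were thus lower in 4 of 4 pairs each, while 42.6% of all genes kept 1 direction in 4 of 4. The membrane-type Mmp25 had a log2 fold change of -0.56 (adjusted p = 0.443), and Mmp16 had at most 1 count. This grouping by membrane anchor was made after the values were seen and was not tested. The mesothelial markers were lower in Tim-4+ TAMs as well, and their part in these differences was not tested. Timp4 had 1 to 115 counts, was lower in 4 of 4 pairs and had a log2 fold change of -2.69 (SE 0.95, adjusted p = 0.0922). Mmp11 (-1.61, adjusted p = 0.0621) and Mmp23 (-0.95, adjusted p = 0.416) were lower in 3 of 4 pairs each.

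**Figure D5:**
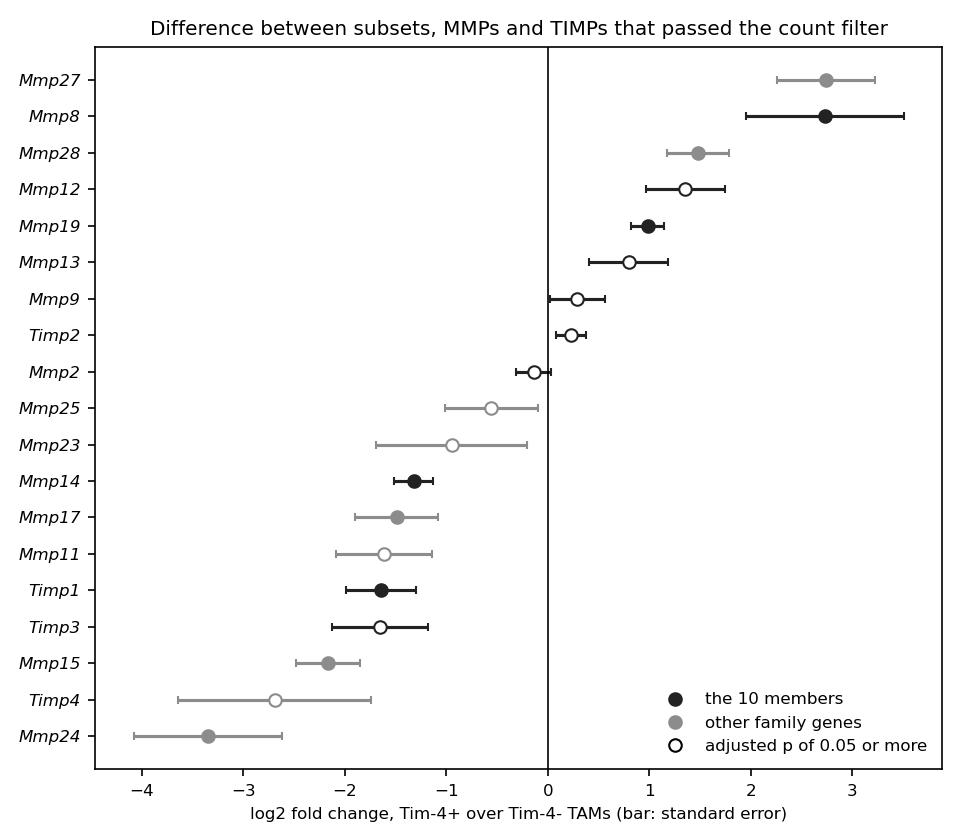
Log2 fold change of Tim-4+ over Tim-4- TAMs with its standard error for the 19 MMP and TIMP genes that passed the count filter. Filled symbols have an adjusted p under 0.05, with the 10 members in black and other family genes in gray. Mmp27, Mmp8, Mmp28 and Mmp19 are called on the right, and Mmp14, Mmp17, Timp1, Mmp15 and Mmp24 on the left.

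Most MMPs need cleavage of a propeptide, for which furin, plasmin and leukocyte serine proteases are known activators. Of 12 genes of this kind, 8 were tested, 3 rose and 2 fell in Tim-4+ TAMs, against 8.97% and 8.43% of all genes. Those that rose were Plaur, the urokinase receptor (log2 fold change 1.08, adjusted p = 0.00840), Serpinb2, which encodes a serpin that inhibits urokinase (2.66, adjusted p = 0.00907), and Prtn3, which encodes proteinase 3 (1.19, adjusted p = 0.0342). The plasminogen activators themselves fell, with log2 fold changes of -0.84 for Plau (adjusted p = 0.0104) and -2.06 for Plat (adjusted p = 0.0120). Furin was at 204 and 186 CPM in the subsets (log2 fold change 0.14, adjusted p = 0.534), and Plg, which encodes plasminogen, had 0 counts in all libraries. Plaur and Serpinb2 were thus higher, and the activators lower, in Tim-4+ TAMs. Plau and Plat went in the direction of the mesothelial markers, whose part was not tested.

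Of 17 genes for surface partners, inducers and clearance receptors of MMPs, 15 were tested. Of these, 5 rose and 1 fell, against 8.97% and 8.43% of all genes. Bsg, which encodes the MMP inducer basigin, rose from 363 ± 41.9 to 667 ± 87.2 CPM (SD, n = 4, log2 fold change 0.88, adjusted p = 0.00962). Lcn2, whose product lipocalin 2 binds Mmp9, rose by 1.82 on the log2 scale (adjusted p = 0.00848), though Mmp9 itself was not called. Thbs1 (1.61, adjusted p = 0.0137), Itgb1 (0.87, adjusted p = 0.0137) and Cav1 (1.97, adjusted p = 0.00386) rose as well, and Sdc1, a heparan sulfate proteoglycan shed by MMPs, had a log2 fold change of -1.35 (adjusted p = 0.00949). Reck, a membrane-anchored inhibitor of Mmp14, Mmp2 and Mmp9, was higher in 4 of 4 pairs but had at most 65 counts and was not called (log2 fold change 2.05, SE 0.72, adjusted p = 0.0870). Lrp1, the endocytic receptor that clears MMPs and TIMPs, was abundant at 2367 and 2030 CPM, with a log2 fold change of 0.29 (adjusted p = 0.290).

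Several members share their locus with other genes, and whether reads were counted by strand was not given in the sources used here. Timp1 lies within Syn1 and Timp3 within Syn3, both on the opposite strand, and Mmp12 overlaps the end of Mmp1b. Syn1 was at 1.67 and 2.30 CPM in the subsets and was not called (log2 fold change -0.44, adjusted p = 0.312), and Syn3 and Mmp1b had at most 50 and 2 counts. Timp2 holds Cep295nl on the same strand, which was at 4.86 and 3.97 CPM. The counts of these neighbors were small beside those of Timp2 and Timp3, whereas Syn1 reached levels near those of Timp1 in Tim-4+ TAMs.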

How the data were processed

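RNA was sequenced from 8 libraries in 2 lanes each. The authors deposited raw counts per gene and lane, not normalized. The labels name FastQC 0.11.3, TopHat2 2.0.13, Cufflinks and Cuffdiff 2.2.1 on GRCm38/mm10, while the methods name hg19. The tool that made the counts and its strand setting were not given in the sources used here. Lines naming no gene (no feature 4.59% to 6.83%, ambiguous 3.42% to 4.3%, not unique 9.11% to 24.5% of all, 15 lanes) were left out. The lane listed by gene symbol was joined by order (96.9% of comparable symbols matched). Lanes were summed, names and exon lengths came from GENCODE M21 (98.6% of identifiers), and promoter sequences from RefSeq on GRCm38.p6.

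Genes that reached 10 counts in 4 or more of the 8 libraries were tested with edgeR 4.0.16 (quasi-likelihood, TMM, pair as a block, Benjamini-Hochberg over 16861 genes, called at an adjusted p under 0.05). The SE is the log2 fold change over the square root of F. The block rests on the pair numbers in the labels and on correlated deviations of same-numbered libraries (r = 0.471, 0.498, 0.408 and 0.277 for pairs 793, 784, 783 and 779). Biological variation (edgeR's common coefficient) was 0.261 and 0.396 in fits with and without this block. CPM are TMM-scaled. Nothing in the labels says that pairs were separate animals, so p-values measure the spread between these samples. The fit was tested on simulated data.

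The members and gene lists were chosen with earlier results of these data known. A gene of the list of MMP activation genes is not reported here. All members were named, and of the lists at most 8 called genes, taken by size of change, plus the most abundant. Other genes named in lists were chosen after their values were seen. They were Reck, Furin, Lamc1, Nid1, Lrp1, Jun, Plg, Ctsg, Mmp11, Mmp16, Mmp23, Mmp25, Timp4, the overlapping genes and marker genes. Alternatives were other scalings, count filters, lanes, DESeq2 1.42.0, no block and leaving out each pair, and the fit on pairs 793 and 783 alone was chosen after seeing the data.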

Additional observations from a re-analysis of the deposited data

How the results depend on the processing

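Of the 10 members, 2 were called higher and 2 lower in Tim-4+ TAMs. Without the pair as a block both counts were 0, and the counts over all genes fell from 1512 and 1421 to 147 and 85. In pairs 793 and 783 alone, chosen after seeing the data, both member counts were also 0. The count of members called higher was 1 with at least 50 counts in 4 libraries, where 9 members were tested, and 1 with lane 2 only. With a pair left out it ranged from 0 to 2, and the count called lower from 0 to 3, with 0 for both without pair 784 and Timp3 as the added gene without pair 783. Over all genes, the range with a pair left out was 91 to 1608 called higher and 67 to 1975 called lower. DESeq2 called 2323 genes lower, and total-count scaling called 789 higher and 4903 lower. The direction turned for Mmp2 in pairs 793 and 783 alone (0.088) and without pair 784, with a range of -0.321 to 0.031 over the fits that left out a pair, and for Mmp9 (-0.065) and Timp2 (-0.13) with total-count scaling. The mean ratio of MMP to TIMP counts became 1.82 in Tim-4+ and 0.502 in Tim-4- TAMs without Mmp14 and Timp2. The cause of these shifts was not tested. Counts limit Mmp8 most, with 0 to 54 per library.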

Other observations

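Transcription factors that act on MMP promoters moved in both directions. Of 15 such genes, 14 were tested, 4 rose and 2 fell in Tim-4+ TAMs, against 8.97% and 8.43% of all genes. The AP-1 genes Fosb (log2 fold change 1.37, SE 0.32, adjusted p = 0.0316) and Junb (0.84, SE 0.18, adjusted p = 0.0224) rose, whereas Fos (0.27, adjusted p = 0.453) and Jun (0.39, adjusted p = 0.171) were not called in edgeR's test. Of the ETS genes, Ets2 rose (0.89, adjusted p = 0.0113), and the log2 fold changes of Ets1 and Etv4 were -1.81 (adjusted p = 0.0182) and -2.31 (adjusted p = 0.0119). The log2 ratios of Etv4 in pairs 793, 784, 783 and 779 were -2.25, -2.89, -0.82 and -3.0, those of Ets1 -0.75, -2.35, -1.37 and -2.81, and those of the mesothelial sum -1.97, -2.59, -1.0 and -3.08. The part of the mesothelial markers in the lower Etv4 and Ets1 was not tested. Cebpb rose too (0.89, adjusted p = 0.0205). Fos was the most abundant of the list, at 2334 and 1884 CPM in the subsets.

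Of 15 genes for matrix proteins that MMPs cut, all tested, 6 were called lower and 1 higher in Tim-4+ TAMs, against 8.43% and 8.97% of all genes. Fn1, which encodes fibronectin, rose from 17180 to 33490 CPM on average (log2 fold change 1.02, adjusted p = 0.0306) and was the most abundant. Those called lower were Col4a1 (-2.38, adjusted p = 0.00855), Col4a2 (-2.57, adjusted p = 0.00848), Lamb1 (-2.16, adjusted p = 0.0198), Hspg2 (-2.09, adjusted p = 0.0140), Eln (-2.54, adjusted p = 0.0147) and Dcn (-1.81, adjusted p = 0.0459). Lamc1 (0.31, adjusted p = 0.0983) and Nid1 (0.65, adjusted p = 0.387), which like Col4a1, Col4a2, Lamb1 and Hspg2 encode basement membrane proteins, were higher in 4 of 4 pairs but not called. The mesothelial markers were lower in Tim-4+ TAMs as well, with a sum of 157 to 631 CPM against 616 to 2490 CPM in Tim-4- TAMs. Their part in the 6 called lower was not tested.

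The genes whose log2 CPM over the 8 libraries was most like that of Timp1, among those with a mean of at least 10 CPM, were Camta1 (Pearson r = 0.988), Ncoa4 (0.982), Myo5b (0.975), Padi3 (0.974) and Tm4sf5 (0.974). The 8 libraries share pairs and subsets, so these correlations are a description.

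Markers of further cell types were also counted. Of 7 epithelial or tumor markers tested, 5 fell in Tim-4+ TAMs, and 4 of these 5 are in the mesothelial list as well. Among mast cell or eosinophil markers 2 of 6 fell, among lymphocyte markers 2 of 5, and among endothelial markers 1 of 4, with 0 called higher in these 3 lists at an adjusted p under 0.05. Of 9 dendritic cell markers, 1 rose and 1 fell. The shares over all genes tested were 8.97% called higher and 8.43% called lower.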
